A study of Mus musculus with 22 samples.

Results

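Genes that encode enzymes and helicases acting on chromatin were examined for hnRNP A1 footprints in mouse spinal cord. The 69 genes were taken by symbol from the protein-coding genes of the GRCm38 annotation, as all whose symbol begins with Kmt2, Kmt5, Kdm, Setd or Smarc, or with Chd or Arid followed by a number. They are 69 of 21951 protein-coding genes and of 55450 annotated genes. A footprint was assigned to a gene when it overlapped the annotated span by at least 1 nt, and 1650 of the 136207 footprints of the 10 mice fell in these genes. In CLIPseq, protein and RNA are crosslinked by UV light, the protein is recovered with an antibody, and the RNA that comes with it is sequenced. A footprint is a stretch of the genome to which assembled reads of an hnRNP A1 immunoprecipitation were aligned and which was retained after sites of the input of the same mouse and of pooled control IgG were subtracted.

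All 10 mice were female wild-type C57Bl/6 mice, and spinal cord was the tissue in each. The 3 naïve mice (mice 1, 2 and 3) received no immunization by their labels. The 7 mice with experimental autoimmune encephalomyelitis (EAE), an inflammatory demyelinating model of multiple sclerosis, were immunized with the myelin peptide MOG35-55, given 100 ng of pertussis toxin, and taken 15 days after onset of signs. Mild EAE comprised EAE mice 3, 4 and 7 with clinical scores of 1.5, 1.5 and 1.0, and severe EAE comprised EAE mice 1, 2, 5 and 6 with scores of 2.5, 3.0, 2.5 and 3.0. The EAE mice were 12 weeks old at immunization by the protocol and 8 weeks old by the design text, the naïve mice are described as matched to them in age, and the labels and the methods name different antibody clones. Mouse numbers are those of the sample titles, which differ from the numbers within groups used in the study. Each mouse gave 1 immunoprecipitation, so each is 1 replicate.

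The lists differed greatly in length between mice. They held 17119, 17454 and 17494 footprints in naïve mice 1, 2 and 3. Those of mild EAE mice 3, 4 and 7 held 14534, 9751 and 24433, and those of severe EAE held 2670, 209, 31870 and 673 in mice 1, 2, 5 and 6. Severe EAE mouse 5 therefore held most severe EAE footprints, and severe EAE mice 1, 2 and 6 had short lists. A footprint carries a position but no score, strand or read count, and the number of reads behind it is unknown. The study reports similar sequencing depth among its samples, and the cause of the short lists was not tested here. Lists hold retained sites alone, so that the absence of a footprint does not show absence of binding. The level of a gene is given as its covered nucleotides (nt), the length of its span that lies under footprints, or as covered nt per 1000000 nt covered in the same mouse.

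Histone lysine methyltransferases and demethylases add and remove methyl groups on histone tails, and ATP-dependent remodelers of the SWI/SNF, ISWI and CHD families slide, eject or exchange nucleosomes. These proteins set which genes can be transcribed during neuronal and glial differentiation, and many of them are encoded by long genes with many exons. hnRNP A1 is an abundant nuclear RNA-binding protein that shuttles to the cytoplasm, takes part in the choice of splice sites, and is known to favour RNA that holds the core motif UAG.

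Sequences of stretches that recurred between mice are shown first, 5 from introns, 4 of them picked for their UAG content, and 4 from coding sequence. Footprints of all mice were merged into regions, and the part of a region under footprints of the most mice is printed 5′ to 3′ on the strand of the gene, in the DNA letters of the GRCm38 genome, with each TAG (UAG in the RNA) in capitals. Exons and introns are numbered along 1 coding transcript of the gene. The Arid5b stretch lay at chr10:68207389-68207496 on the minus strand in intron 3 and was covered in 8 mice. The Kdm4c stretch lay at chr4:74391902-74392052 on the plus strand in intron 20 and was covered in 5 mice. The Kdm1a stretch lay at chr4:136570217-136570319 on the minus strand in intron 8, also in 5 mice. The Smarca5 stretch at chr8:80711314-80711425 (minus strand, intron 15) and the Kdm6a stretch at chrX:18168137-18168216 (plus strand, intron 2) were each covered in 3 mice. The coding stretches were Chd5 exon 25 at chr4:152376969-152377141 (plus strand, 6 mice), Chd5 exon 27 at chr4:152378191-152378270 (plus strand, 7 mice), Setd2 exon 3 at chr9:110547759-110547870 (plus strand, 6 mice) and Kmt2d exon 11 at chr15:98863976-98864095 (minus strand, 5 mice). The Arid5b and coding stretches were among the regions of the most mice, whereas the other 4 intronic stretches were chosen after their values were seen and do not stand for recurrent introns at large.
Arid5b intron 3: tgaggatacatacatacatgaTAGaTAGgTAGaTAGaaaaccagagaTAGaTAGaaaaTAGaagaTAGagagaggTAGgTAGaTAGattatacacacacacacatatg
Kdm4c intron 20: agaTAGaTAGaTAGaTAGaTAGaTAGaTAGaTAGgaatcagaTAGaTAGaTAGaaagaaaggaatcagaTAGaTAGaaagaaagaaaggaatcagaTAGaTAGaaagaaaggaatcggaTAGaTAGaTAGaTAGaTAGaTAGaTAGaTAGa
Kdm1a intron 8: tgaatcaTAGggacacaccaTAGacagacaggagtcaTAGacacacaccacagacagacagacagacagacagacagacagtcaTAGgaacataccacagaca
Smarca5 intron 15: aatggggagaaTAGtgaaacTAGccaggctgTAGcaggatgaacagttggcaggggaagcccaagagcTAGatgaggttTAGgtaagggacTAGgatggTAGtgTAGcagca
Kdm6a intron 2: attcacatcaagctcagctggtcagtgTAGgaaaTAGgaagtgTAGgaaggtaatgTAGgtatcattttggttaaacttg
Chd5 exon 25: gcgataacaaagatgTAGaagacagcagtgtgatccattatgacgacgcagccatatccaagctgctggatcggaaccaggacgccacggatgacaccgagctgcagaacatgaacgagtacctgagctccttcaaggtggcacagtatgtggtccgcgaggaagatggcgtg
Chd5 exon 27: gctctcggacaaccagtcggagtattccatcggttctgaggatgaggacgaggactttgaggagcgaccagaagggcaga
Setd2 exon 3: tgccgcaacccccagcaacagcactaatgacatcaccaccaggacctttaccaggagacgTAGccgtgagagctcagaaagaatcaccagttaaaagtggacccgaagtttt
Kmt2d exon 11: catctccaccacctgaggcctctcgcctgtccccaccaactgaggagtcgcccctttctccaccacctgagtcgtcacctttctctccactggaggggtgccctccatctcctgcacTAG

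The 5 intronic stretches held more UAG than the 4 coding stretches, which the choice of 4 of them fixes. UAG occurred 11 times in the 108 nt of Arid5b, 23 times in the 151 nt of Kdm4c, 8 times in the 112 nt of Smarca5, and 4 times each in Kdm1a and Kdm6a. Chd5 exon 25, Setd2 exon 3 and Kmt2d exon 11 held 1 copy each, and Chd5 exon 27 held 0. Stretches of Chd5 exons 26 and 28, Chd3 exon 8 and Setd7 exon 3 were also among the regions of the most mice. They are not printed, and held 0 UAG in 9 to 47 nt. CUA, which is UAG read on the opposite strand, was absent from the Arid5b, Kdm4c, Kdm1a and Kdm6a stretches and occurred 3 times in Smarca5. The whole regions around the intronic stretches held 64.3 (Arid5b), 152 (Kdm4c), 37.0 (Kdm1a), 68.2 (Smarca5) and 40.8 (Kdm6a) UAG per 1000 nt. The other 4 of the 9 intronic regions found in at least 3 mice, which are not printed, held 9.35, 14.6 and 10 (Chd9) and 13.9 (Chd5) per 1000 nt, below the 15.1 of whole introns of the chromatin genes.

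Chromatin genes were footprinted more often than protein-coding genes at large. A footprint was found in 60 of the 69 genes (87.0%) in at least 1 mouse, compared with 9999 protein-coding genes (45.6%). In naïve mice 1, 2 and 3 footprints lay in 38, 42 and 42 of the chromatin genes (55.1, 60.9 and 60.9%), where 17.7, 24.1 and 19.9% of protein-coding genes were footprinted. In mild EAE mice 3, 4 and 7 they lay in 47, 29 and 45 genes (68.1, 42.0 and 65.2%, against 18.4, 13.7 and 25.5%). In severe EAE mice 1, 2, 5 and 6 they lay in 16, 0, 49 and 5 genes (23.2, 0, 71.0 and 7.25%, against 5.46, 0.487, 29.5 and 1.80%). The share was higher for the chromatin genes in 9 of 10 mice, the exception being severe EAE mouse 2 with 209 footprints in all.

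The chromatin genes are longer than most, and genes footprinted in at least 4 mice, a stricter measure than above, were compared by span. The median span was 51544 nt for the chromatin genes and 17403 nt for protein-coding genes. Among genes with spans under 20000 nt, 33.3% of chromatin genes and 9.45% of protein-coding genes were footprinted in at least 4 mice. The corresponding shares were 54.2 and 19.7% from 20000 to 50000 nt, 77.3 and 30.9% from 50000 to 100000 nt, and 78.6 and 53.2% above that. Exonic and coding length were not matched, and differences in expression of the genes in spinal cord were not measured here.

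As a share of the list of each mouse, the chromatin genes took 1.12, 1.07 and 1.35% of footprints in naïve mice (mean 1.18% ± 0.153, SD, n = 3), 1.52, 1.53 and 1.2% in mild EAE mice (1.41% ± 0.190, n = 3) and 1.01, 0, 1.06 and 1.34% in severe EAE mice (0.851% ± 0.586, n = 4). The ranges of all 3 groups overlapped. EAE minus naïve was -0.0878 percentage points over 7 EAE mice, and 0.145 points when severe EAE mice 1, 2 and 6 were left out. In raw numbers, 192, 186 and 237 footprints lay in the chromatin genes in naïve mice, 221, 149 and 292 in mild EAE mice and 27, 0, 337 and 9 in severe EAE mice.

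Footprints in chromatin genes lay mostly in coding sequence. By the midpoint of the footprint, 1453 of 1650 (88.1%) lay in coding sequence, 136 (8.24%) in introns, 26 (1.58%) in 3′ UTRs and 17 (1.03%) in 5′ UTRs, although introns made up 86.6% of the spans and coding sequence 46.1% of the exonic length. In naïve mice 1, 2 and 3 the coding share was 84.9, 75.8 and 88.2%, where it was 51.5, 45 and 61.4% over all protein-coding genes. In mild EAE mice 3, 4 and 7 it was 96.8, 86.6 and 93.5%, against 79.1, 64.6 and 69.2%. In severe EAE mice 1, 5 and 6 it was 77.8, 87.8 and 77.8%, against 61.4, 63.9 and 46.7%. The coding share of the chromatin genes was thus the higher in 9 of the 9 mice with footprints in them.

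**Figure D1:**
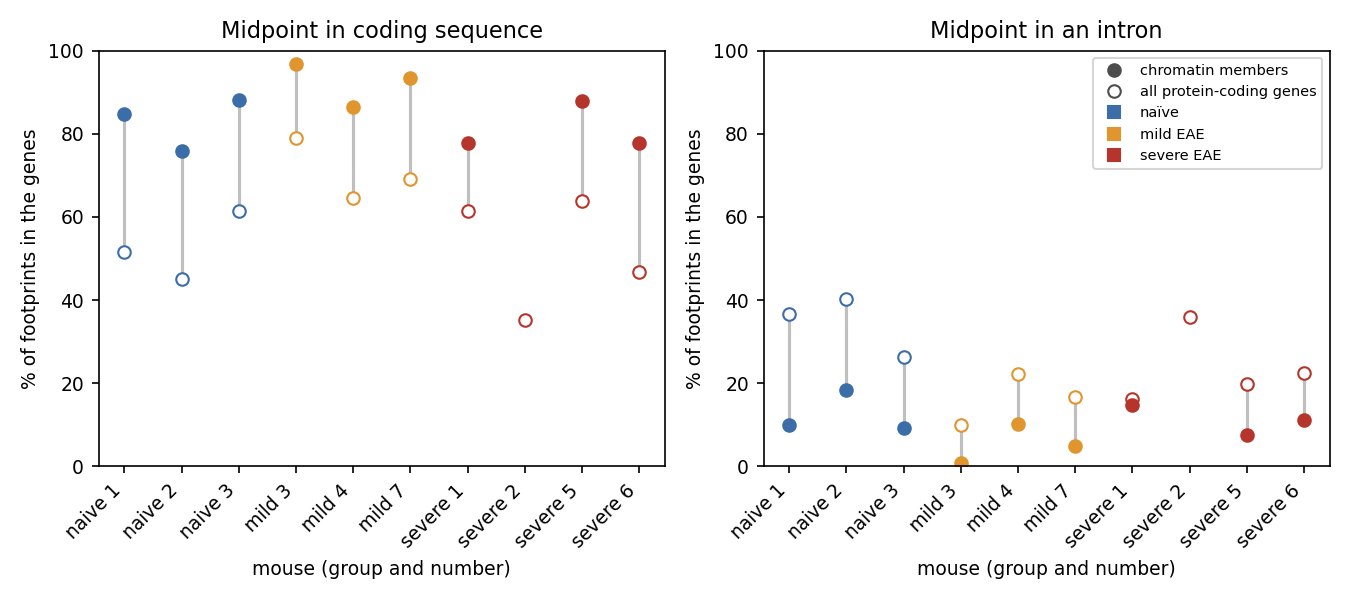
Percent of footprints whose midpoint lay in coding sequence (left) or in an intron (right), for each mouse, in chromatin genes (filled points) and in all protein-coding genes (open points), with grey lines joining values of the same mouse. Filled points sit above open points on the left and below them on the right in all 9 mice with footprints in chromatin genes; severe EAE mouse 2 had none.

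The intronic share was lower in chromatin genes than in protein-coding genes in the same 9 mice, and it varied between mice of a group. It was 9.90, 18.3 and 9.28% in naïve mice (mean 12.5% ± 5.03, SD, n = 3), 0.905, 10.1 and 4.79% in mild EAE mice (5.26% ± 4.60, n = 3) and 14.8, 7.42 and 11.1% in severe EAE mice 1, 5 and 6 (11.1% ± 3.70, n = 3). EAE minus naïve was -4.30 percentage points, and the groups overlapped. The difference was -1.40 points without naïve mouse 2, -2.84 without mild EAE mouse 3 and -6.69 without severe EAE mice 1, 2 and 6. It was -0.737 points as a share of covered nt and -2.39 when exons of protein-coding transcripts alone were used, so that its size depends on 1 mouse and on the measure. Over all protein-coding genes the intronic share was 36.5, 40.2 and 26.2% in naïve mice and 9.91, 22.3 and 16.8% in mild EAE mice, which did not overlap. In severe EAE mice 1, 2, 5 and 6 it was 16.2, 35.8, 19.7 and 22.4%, so that severe EAE overlapped naïve through mouse 2, which had 209 footprints.

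Coding footprints followed exon boundaries. Of 1453 coding footprints, 1156 (79.6%) had at least 1 end exactly on an annotated exon end and 203 (14.0%) had both ends there, and the first of these shares ran from 66 to 85% across the 9 mice. Their median length was 91 nt, compared with 141 nt for intronic footprints. Contigs were aligned in spliced mode, so that a contig over several exons can give 1 footprint an exon. Exons footprinted in a mouse were often neighbours: 156 exons fell into 79 runs of adjacent exons in naïve mouse 1, with up to 6 exons in a run, and 255 exons fell into 122 runs in mild EAE mouse 7, where 10 adjacent exons of Chd4 formed 1 run. Footprints of 1 gene in 1 mouse are therefore not independent of each other.

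CHD genes encode chromodomain helicases, of which CHD3, CHD4 and CHD5 are the motor subunits of the NuRD remodeling and deacetylase complex. All 10 CHD genes were footprinted, with 540 footprints in the 10 mice, of which 88.0% were coding and 8.52% intronic. Chd5, a gene expressed mainly in neurons, had 1941, 1218 and 1341 covered nt in naïve mice 1, 2 and 3. Its coverage was 2294, 1838 and 1360 nt in mild EAE mice 3, 4 and 7. It was 171, 0, 1629 and 0 nt in severe EAE mice 1, 2, 5 and 6. Chd3 had 1526, 306 and 1436 covered nt in naïve mice, 1341, 1342 and 1311 in mild EAE mice and 142, 0, 1840 and 317 in severe EAE mice. The ranges of naïve and mild EAE mice overlapped for both genes, and naïve mouse 2 was low for Chd3.

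Chd4 had 592, 1016 and 684 covered nt in naïve mice, 820, 541 and 1968 in mild EAE mice and 142, 0, 1750 and 0 in severe EAE mice. Chd9 had 1365, 729 and 1348, then 474, 304 and 2217, then 780, 0, 2315 and 0, and was unlike the others in that 32 of its 55 footprints were intronic. Mild EAE mouse 7 and severe EAE mouse 5, which had the longest lists, held the most for Chd4 and Chd9. Chd6 ranged from 410 to 943 covered nt in naïve mice and from 329 to 928 in mild EAE mice, and was at 147, 0, 1372 and 0 in severe EAE mice. Chd2 ranged from 413 to 532 in naïve mice and from 637 to 863 in mild EAE mice before division by the list total, and was at 0, 0, 768 and 133 in severe EAE mice. After division by the list total the naïve and mild EAE values of Chd2 overlapped. Chd1 and Chd1l had footprints in 3 and 2 mice.

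The Chd5 coding sequence held 3 of the 4 coding regions that were found in 7 mice, the most for coding sequence. Exons 26, 27 and 28 each carried a footprint in all 3 naïve mice, all 3 mild EAE mice and 1 severe EAE mouse, and exon 25 carried one in 2 naïve, 3 mild EAE and 1 severe EAE mouse. In all, 32 of 42 Chd5 exons were footprinted in some mouse and 28 in at least 2 mice. The corresponding numbers were 33 of 40 exons and 24 for Chd3, and 29 of 39 and 21 for Chd4.

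The H3K4 methyltransferases deposit the methyl mark found at active promoters (Setd1a, Setd1b, Kmt2a, Kmt2b) and enhancers (Kmt2c, Kmt2d), while Kmt2e carries the same kind of SET domain but is regarded as a reader. All 7 were footprinted, with 424 footprints, 95.5% of them coding and 2.12% intronic. Kmt2d had the most footprints of any chromatin gene, 141, and was found in 9 mice. Its covered nt were 2102, 1908 and 2076 in naïve mice, 2102, 1283 and 2387 in mild EAE mice and 120, 0, 1539 and 128 in severe EAE mice. The 3 naïve values lay close together and within the mild EAE range.

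Kmt2a had 1473, 1464 and 1952 covered nt in naïve mice, 421, 1026 and 905 in mild EAE mice and 107, 0, 2492 and 0 in severe EAE mice. It was the 1 tested chromatin gene whose naïve values all exceeded the mild EAE values before division by the list total, and this did not hold afterwards. Kmt2c had 1255, 905 and 1968, then 376, 606 and 1958, then 0, 0, 1602 and 121. Kmt2e had 298, 974 and 1301, then 677, 203 and 1125, then 133, 0, 1704 and 0. Naïve and mild EAE mice overlapped for Kmt2c and Kmt2e. Footprints were found in 41 of 55 exons of Kmt2d, 25 of 36 of Kmt2a, 27 of 59 of Kmt2c and 20 of 26 of Kmt2e.

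The SWI/SNF genes encode the ATPases and accessory subunits of the BAF complexes, whose composition changes as neural progenitors become neurons. Footprints were found in 11 of 12, 283 in number, with 88.7% coding, 4.95% intronic and 5.30% in 3′ UTRs. Smarcc2, a core scaffold subunit, had 981, 609 and 1302 covered nt in naïve mice, 1010, 343 and 1149 in mild EAE mice and 0, 0, 1902 and 0 in severe EAE mice. The genes Smarca4 and Smarca2 encode the alternative ATPases of the complexes. Smarca4 had 462, 517 and 452 covered nt in naïve mice and 830, 764 and 1232 in mild EAE mice, with no overlap, and 0, 0, 1536 and 0 in severe EAE mice. Smarca2 had 753, 612 and 920 in naïve mice, 229, 304 and 1125 in mild EAE mice and 0, 0, 767 and 138 in severe EAE mice, and its groups overlapped. Arid1a, a DNA-binding subunit, was found in 6 mice and Smarcc1 in 6, and Smarcd1, Smarcd3 and Smarce1 were found in 4 each. Of 4 genes for ISWI and other SNF2 helicases, Smarca5 was found in 6 mice, Smarca1 in 2 and Smarcad1 in 1.

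**Figure D2:**
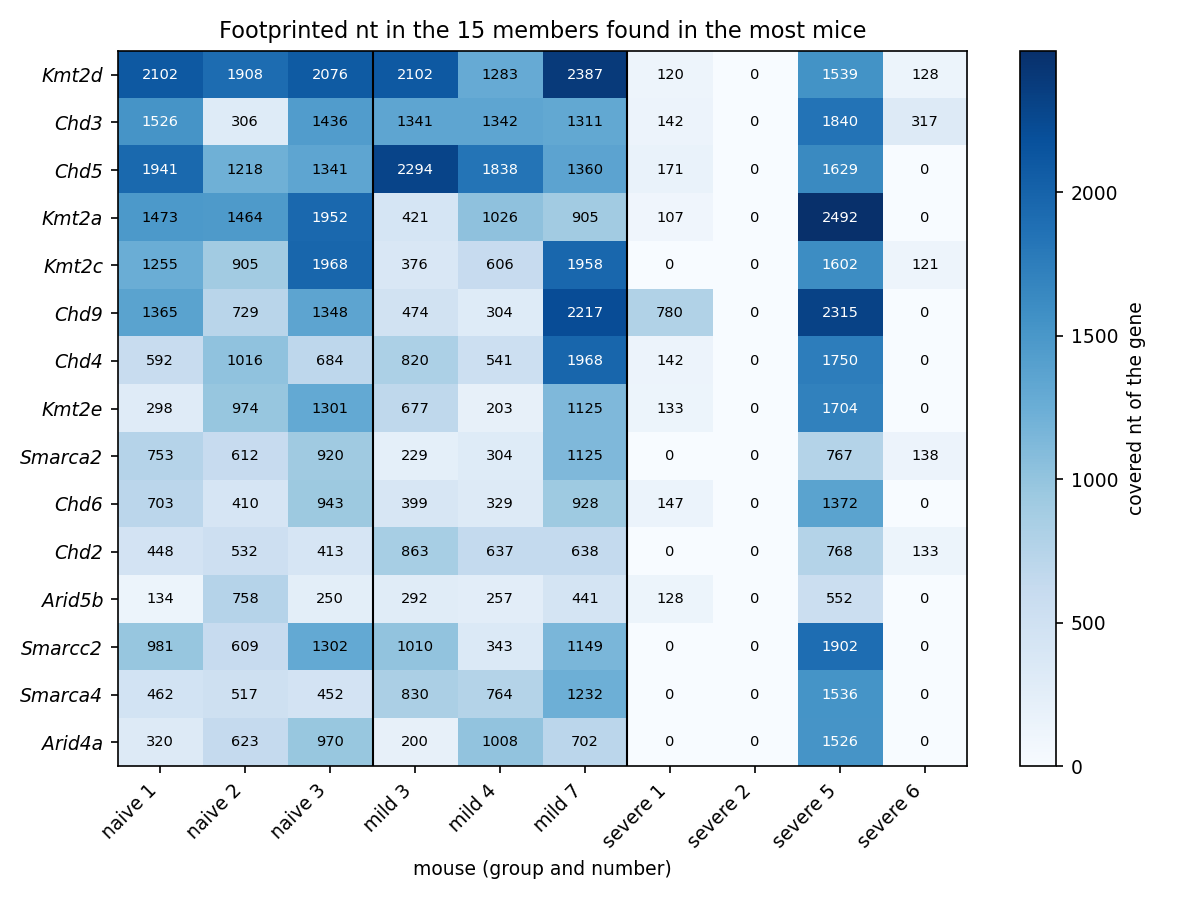
Covered nt (colour and number) in the 15 chromatin genes found in the most mice (rows) in each mouse (columns), with black lines between naïve, mild EAE and severe EAE mice. Kmt2d holds 1283 to 2387 covered nt in every naïve and mild EAE mouse, and severe EAE mouse 5 stands above the other severe EAE mice in every row.

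Levels compared per length gave another order. Covered nt over the exonic length of the gene, averaged over the 6 naïve and mild EAE mice, were 17.4% for Chd5, 16.2% for Smarcc2, 14.5% for Kdm4d, 14.3% for Chd3, 11.7% for Chd4, 11.3% for Arid4a, 11% for Smarca4 and 9.92% for Kmt2d. Covered nt in introns enter this measure, and the value of Kdm4d comes from intronic footprints of 2 mice and that of Arid4a in part from introns. Chromatin genes were thus footprinted unevenly, and the 10 with the most footprints held 878 of 1650 (53.2%).

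Lysine demethylases remove methyl groups through a flavin-dependent oxidase domain (Kdm1a, Kdm1b) or a Jumonji domain (the others). Of 18, 16 were footprinted, but with 150 footprints in all, 78.7% coding and 19.3% intronic. Kdm1a had 171, 285 and 246 covered nt in naïve mice, 134, 239 and 262 in mild EAE mice and 0, 0, 237 and 0 in severe EAE mice, and 8 of its 12 footprints were intronic. Kdm7a had 138, 137 and 373, then 121, 177 and 216, then 0, 0, 171 and 0. Kdm4c, a demethylase of H3K9, had 6 footprints, all intronic, in 5 mice. Kdm4d had 2 footprints, and that of mild EAE mouse 7 was 2338 nt of intron, of which 98.6% was soft-masked repeat sequence.

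Kdm5c and Kdm6a, X-linked demethylases, were found in 5 and 4 mice. Kdm5c had 224, 0 and 119 covered nt in naïve mice, 416, 0 and 275 in mild EAE mice and 0, 0, 771 and 0 in severe EAE mice. Kdm6a had 0, 136 and 135, then 0, 0 and 117, then 0, 0, 255 and 0. Their Y-linked relative Kdm5d had no footprint in any of these female mice, although the lists placed 0 to 49 footprints a mouse on the Y chromosome.

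Other SET-domain genes include Kmt5a, which monomethylates H4K20, and Setd2, which trimethylates H3K36 in transcribed genes. Footprints were found in 9 of 11, 126 in number and 88.1% coding. Setd2 had 0, 118 and 683 covered nt in naïve mice, 158, 411 and 1271 in mild EAE mice and 137, 0, 1331 and 0 in severe EAE mice. Kmt5a had 373, 353 and 177, then 247, 305 and 464, then 0, 0, 258 and 0, and 6 of its 7 exons were footprinted. Of 7 other ARID genes, which encode proteins with an AT-rich interaction domain, 4 were footprinted, with 99 footprints and the highest intronic share of any class (29.3%). Arid4a had 320, 623 and 970 covered nt in naïve mice, 200, 1008 and 702 in mild EAE mice and 0, 0, 1526 and 0 in severe EAE mice. Arid5b had 134, 758 and 250, then 292, 257 and 441, then 128, 0, 552 and 0, and 13 of its 24 footprints were intronic. No footprint was retained in Arid3b, Arid3c, Arid5a, Kdm5d, Kdm8, Setd6, Setdb2, Smarcal1 or Smarcd2 in any mouse.

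Intronic footprints gathered at few places. Of 136 intronic footprints in 35 genes, 61 (44.9%) lay in Chd9, Arid4a and Arid5b, 52 (38.2%) had their midpoint within 1000 nt of an exon, and 61 (44.9%) were more soft-masked than not. The merged footprints gave 86 intronic regions, of which 18 (20.9%) were found in at least 2 mice and 4 in at least 5, and 699 coding regions, of which 336 (48.1%) were found in at least 2 mice and 63 in at least 5. The Arid5b intron 3 region at chr10:68207362-68207532 was found in 8 mice, all 3 naïve, all 3 mild EAE and 2 severe EAE mice, the most of any region in these genes, and each of its 8 footprints held the same 11 copies of UAG. By comparison, 14 of 21977 intronic regions of protein-coding genes were found in at least 8 mice. The region was 94.2% soft-masked, and the central 40 bases of its stretch occur at 1 place in the genome.

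Other intronic regions recurred in different ways. The Kdm4c region at chr4:74391898-74392061 held 25 UAG and 0 CUA in 164 nt, was wholly soft-masked, and was found in naïve mice 1 and 3, mild EAE mice 4 and 7 and severe EAE mouse 5. The Kdm1a region at chr4:136570071-136570367 held 11 UAG and 1 CUA in 297 nt and was found in the same 5 mice. The Chd9 region at chr8:90889965-90891034 in intron 2 was found in 7 mice but was long (1070 nt), held 10 UAG and 11 CUA, and has other copies of its central bases in the genome. In Chd5 intron 11, at chr4:152363778-152363993, a footprint was found in all 3 naïve mice and in 0 of 7 EAE mice. Of 86 intronic regions of the chromatin genes, this 1 (1.16%) was found in 3 naïve and no mild EAE mice. The same pattern held for 72 of 21977 intronic regions (0.328%) of all protein-coding genes. Single regions were not tested, and the lists of severe EAE mice other than mouse 5 were short. The 26 nt of the Chd5 region shared by the 3 naïve mice occur at 2 places in the genome.

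**Figure D3:**
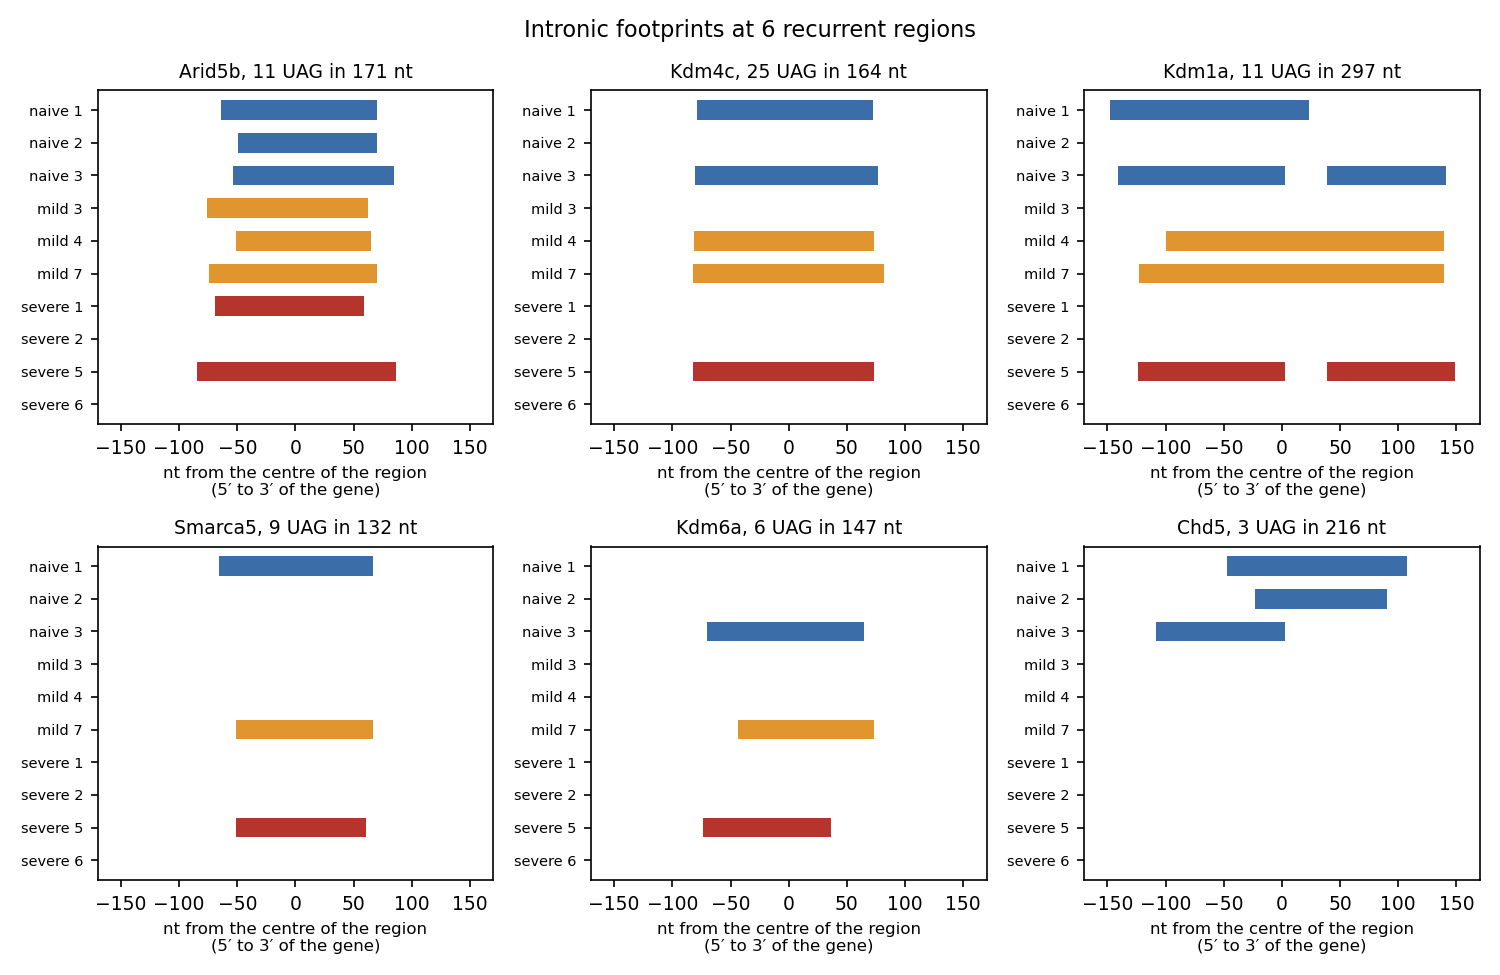
Intronic footprints (bars) of each mouse at 6 recurrent regions, as nt from the centre of the region along the gene, coloured by naïve (blue), mild EAE (orange) and severe EAE (red), with the number of UAG in each region above. Footprints of 8 mice coincide in Arid5b, those of 5 mice in Kdm4c and Kdm1a, and those in Chd5 came from the 3 naïve mice.

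UAG was counted in the regions on the strand of the gene, overlapping copies included, and CUA beside it. In introns of the chromatin genes it occurred 12.4 times per 1000 nt in the 68 regions of 1 mouse, 41.2 times in the 9 regions of 2 mice and 26.1 times in the 9 regions of 3 or more mice, where CUA occurred 11.9, 8.53 and 10.8 times. Whole introns of these genes held 15.1 UAG per 1000 nt. The value for regions of 3 or more mice was 57.7 without Chd9 and 20 without Kdm4c, so that it rests on few regions. At least 1 UAG was held by all 9 of these regions (100%) and by 92.1% of the intronic regions of 3 or more mice in protein-coding genes, whose UAG density was 16.2 in regions of 1 mouse, 20.5 in those of 2 and 28.2 in those of 3 or more. In coding regions of the chromatin genes the density was 6.01, 5.38 and 5.38, and whole coding sequence held 5.84.

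**Figure D4:**
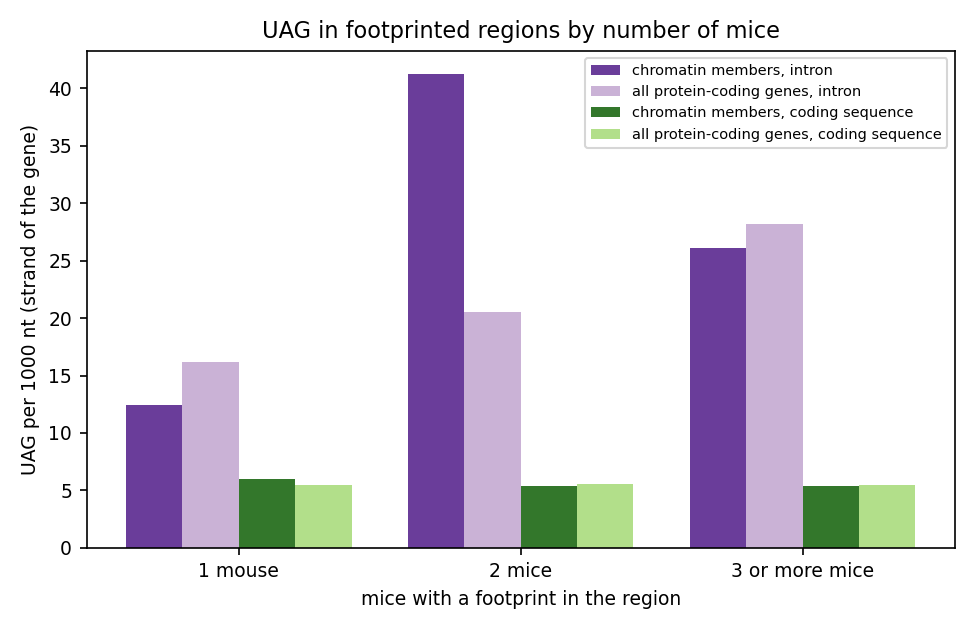
UAG per 1000 nt on the strand of the gene (vertical axis, from 0) in footprinted regions of 1, 2 or 3 or more mice, for introns (purple) and coding sequence (green) of chromatin genes (dark) and of all protein-coding genes (light). Intronic bars stand at 12.4 to 41.2 and coding bars between 5.38 and 6.01; the dark intronic bars for 2 and for 3 or more mice rest on 9 regions each.

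The motif content of intronic footprints did not separate the groups. Under intronic footprints UAG occurred 32.4, 11.8 and 34.6 times per 1000 nt in naïve mice 1, 2 and 3, 25.4, 32.5 and 24.5 times in mild EAE mice 3, 4 and 7, and 24.9, 25.0 and 14.1 times in severe EAE mice 1, 5 and 6. AGGU, the letters of an exon end joined to a 5′ splice site, occurred 11.4, 3.27 and 8.37 times per 1000 nt in naïve mice, 9.78, 3.47 and 4.30 times in mild EAE mice and 8.68, 7.60 and 0 times in severe EAE mice, where whole introns held 4.16. Ranges overlapped for both motifs, and naïve mouse 2 was the lowest of the naïve mice in each.

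Whether footprinting of the chromatin genes differed between naïve and EAE mice was tested for the 44 of them footprinted in at least 4 mice, together with all 5015 genes that met this limit. Covered nt per 1000000 were compared by exact two-sided permutation tests over mice with Benjamini-Hochberg adjustment over the 5015 genes, and a gene was called when the values of the groups did not overlap. A gene found in 1 group of 3 mice alone could not enter. A gene with no footprint in naïve mice could enter through mild and severe EAE, and could then not be called lower. No gene of the 5015 passed an adjusted p of 0.05 by this exact permutation test in any comparison, with lowest adjusted p values of 0.591 for mild EAE, 0.324 for severe EAE and 0.260 for all EAE. The 3 comparisons share the naïve mice.

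In mild EAE, 4 chromatin genes were covered more in every mild EAE mouse than in any naïve mouse, and 0 were covered less. The 4 are 9.09% of the 44, and 10.5% of all genes tested were called in this direction, while in the other direction the background was 6.38%. The count of 4 was 9 without mild EAE mouse 4, 8 without mild EAE mouse 7 or naïve mouse 2 and 7 without naïve mouse 3. Fewer mice make a lack of overlap easier, and the share of all genes was not counted with a mouse left out. These rises are therefore not shown to be particular to the chromatin genes. Smarca4, the BRG1 ATPase, had 208, 252 and 207 covered nt per 1000000 in naïve mice and 536, 661 and 413 in mild EAE mice, and Chd7, a remodeler with roles in neural crest and oligodendrocyte development, had 104, 109 and 49.8 and then 316, 335 and 164. Arid4b, a subunit of the SIN3 deacetylase complex, had 73.9, 54.0 and 152 and then 166, 184 and 190. Setd3, which methylates actin, had 50.5, 0 and 59.9 and then 91.7, 104 and 67.3. The Setd3 values of naïve mouse 1 and mild EAE mouse 4 each came from 1 intronic footprint. Before division by the list total, naïve and mild EAE values overlapped for Arid4b and Setd3. The differences of means, mild EAE minus naïve, were 314 for Smarca4, 184 for Chd7, 86.7 for Arid4b and 50.8 for Setd3. Each gave an exact permutation p of 0.1, the smallest that 3 mice against 3 allow, and an adjusted p of 0.591. By limma on log2(covered nt per 1000000 + 1), 179 genes passed an adjusted p of 0.05 and 0 of them were chromatin genes, the lowest adjusted p of which was 0.570.

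In severe EAE, 6 chromatin genes (13.6% of 44) were covered more in every naïve mouse than in any severe EAE mouse, where the background was 12.5%, and 0 were covered less, where it was 0.14%. Kmt2a had 664, 712 and 893 covered nt per 1000000 in naïve mice and 324, 0, 602 and 0 in severe EAE mice. Chd5 had 874, 593 and 613 and then 518, 0, 393 and 0. The values of Setd1a were 132, 211 and 98.3 and then 0, 0, 72.4 and 0, and those of Kmt5a were 168, 172 and 80.9 and then 0, 0, 62.3 and 0. Kdm1a had 77.0, 139 and 112 and then 0, 0, 57.2 and 0, and Kdm7a had 62.2, 66.7 and 171 and then 0, 0, 41.3 and 0. Before division by the list total, severe EAE mouse 5 had more covered nt than at least 1 naïve mouse for each of the 6. These calls therefore depend on the division. Exact permutation p was 0.0286, the smallest that 3 mice against 4 allow, for Kdm7a, Kmt5a and Setd1a and 0.0571 for Chd5, Kdm1a and Kmt2a, with adjusted p of 0.324 and 0.428. An unadjusted p under 0.05 was reached by 442 genes, 3 of them chromatin genes. The zeros of severe EAE mice 1, 2 and 6 come from lists of 2670, 209 and 673 footprints, at which a gene of this coverage may not be detectable. In severe EAE mouse 5 alone, 11 chromatin genes (25% of 44) lay below every naïve mouse, the 6 among them, and 10 (22.7%) lay above, where the shares of all 5015 genes were 15.3 and 28.2%, but 1 mouse allows no test. The count of 6 was 10 without naïve mouse 1 or severe EAE mouse 6 and 14 without severe EAE mouse 5. In the last case only the lists of 2670, 209 and 673 footprints remain for severe EAE. The share of all genes was not counted for these settings either. Between naïve and mild EAE mice the same 6 genes overlapped.

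Across all 7 EAE mice, 0 chromatin genes were covered less than in every naïve mouse (background 3.61%) and 0 were covered more (background 0.12%). An unadjusted exact permutation p under 0.05 was reached by 470 of 5015 genes and by 0 chromatin genes. With severe EAE mice 1, 2 and 6 left out, 3 of 42 tested (7.14%) were covered more in all 4 remaining EAE mice than in the naïve mice, namely Arid4b, Chd7 and Smarca4, and 0 were covered less. Of all 4804 genes tested without these mice, 7.87 and 4.52% were called in these directions. The median difference of the 44 genes was -19.7 covered nt per 1000000 for all EAE minus naïve, beside -13.0 over the 5015 genes. It was 34.7 beside 15.3 for mild EAE and -56.6 beside -39.5 for severe EAE.

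**Figure D5:**
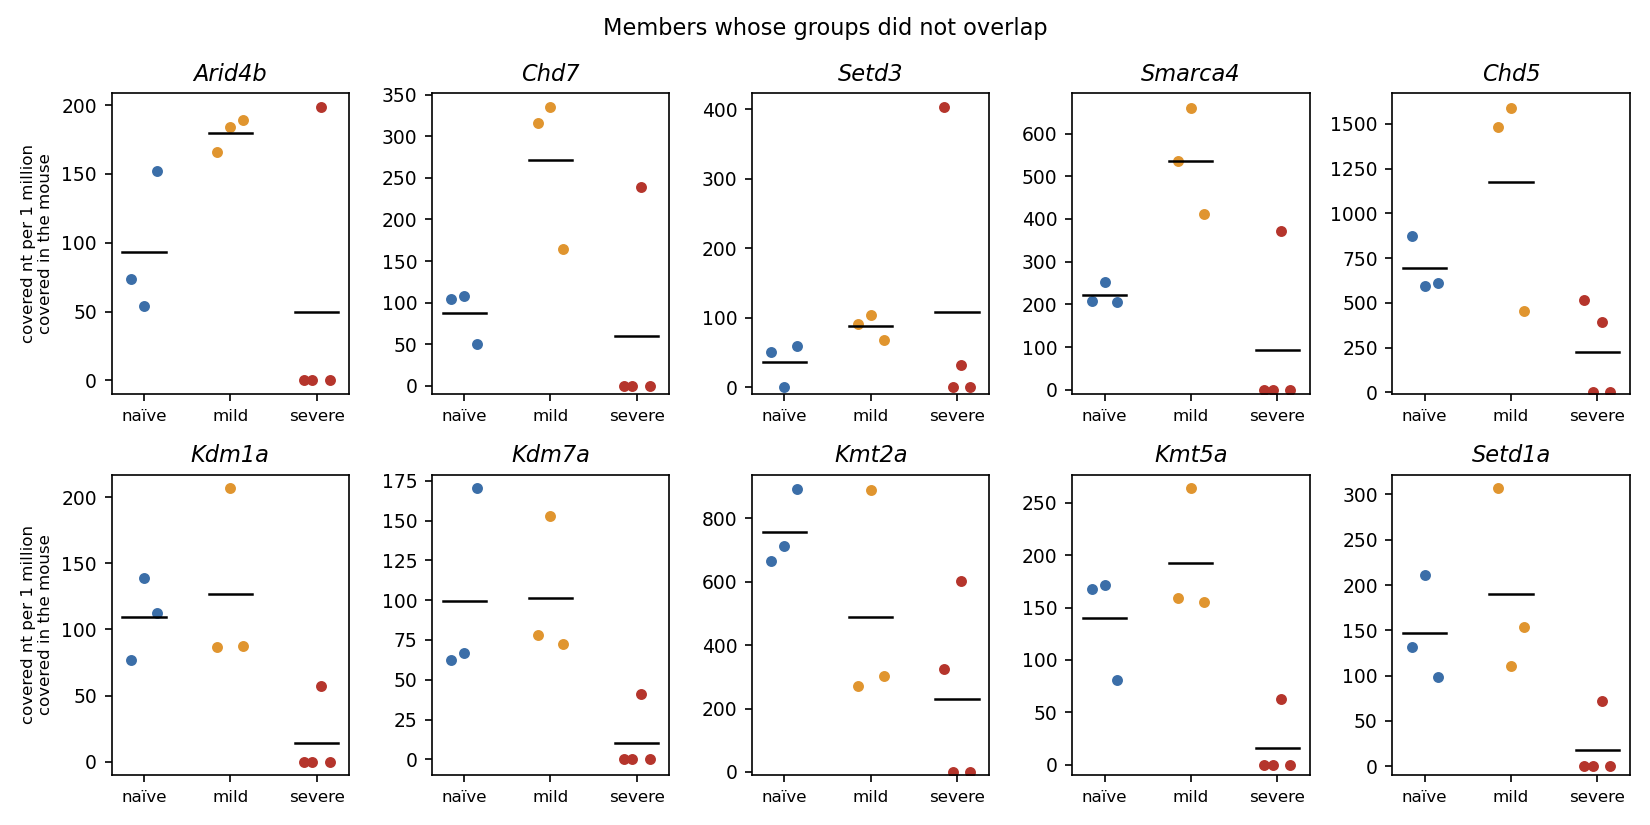
Covered nt per 1000000 nt covered in the mouse (linear axes, scaled for each gene) for the 10 chromatin genes whose naïve values did not overlap those of mild or severe EAE, with points for mice and lines for group means. Smarca4, Chd7, Arid4b and Setd3 lie higher in all 3 mild EAE mice than in naïve mice, and the other 6 lie lower in all 4 severe EAE mice.

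Most tested markers of immune cells were higher in the mild EAE group. Of 11 genes that mark microglia and leukocytes, 1, 2 and 1 were footprinted in naïve mice, 9, 8 and 8 in mild EAE mice and 3, 0, 9 and 4 in severe EAE mice. Their summed covered nt per 1000000 were 77.5, 191 and 141 in naïve mice, 2501, 1249 and 1439 in mild EAE mice and 2032, 0, 1357 and 3434 in severe EAE mice. Of the 8 tested, 6 (Cd74, Csf1r, C1qa, C1qb, H2-Aa and H2-Ab1) were higher in every mild EAE mouse. All of these but C1qb were at 0 in every naïve mouse. They entered the test through EAE mice alone and could not be called lower. Cx3cr1 of microglia went the other way, with 172, 261 and 309 covered nt in naïve mice and 0, 120 and 173 in mild EAE mice. Lyz2 was at 0 in naïve mice and at 557, 239 and 0 in mild EAE mice. Of 8 tested neuronal markers, 3 (Rbfox3, Syt1 and Tubb3) were lower in every mild EAE mouse, and of 5 tested astrocyte markers 2 (Aqp4 and Slc1a2) were higher. Over all genes tested, 10.5% were called higher in mild EAE and 6.38% lower. Of 6 oligodendrocyte markers, 6, 5 and 5 were footprinted in naïve mice and 0 were called. Neuronal markers were footprinted for 7, 8 and 8 of 10 genes in naïve mice and 7, 7 and 9 in mild EAE mice, and astrocyte markers for 3, 3 and 4 of 5 and then 4, 3 and 3. Chat of motor neurons and Cd3e of T cells had no footprint in any mouse, and Gfap of astrocytes had 0, 244 and 625 covered nt in naïve mice and 0 in every mild EAE mouse. The part of cell composition in the values of the chromatin genes was not tested, and in whole spinal cord fewer cells of a type and less RNA per cell cannot be told apart.

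Comparison of single regions showed exons that were footprinted in 1 group and not in another. In coding sequence, 28 regions were found in at least 2 naïve and no mild EAE mice, 53 in at least 2 mild EAE and no naïve mice, and 49 in at least 2 of each. These are 4.01, 7.58 and 7.01% of the 699 coding regions, beside 3.11, 6.43 and 4.81% of the 41097 coding regions of all protein-coding genes, so that the excess of mild EAE over naïve regions was found at large. Regions in all 3 mild EAE and no naïve mice were 10, namely Chd3 exons 24, 25, 26 and 32, Chd5 exons 8 and 35, Smarca2 exons 25 and 26, Chd4 exon 12 and Smarca4 exon 9. They are 1.43% of coding regions, beside 1.18% in all protein-coding genes. Coding regions in all 3 naïve and no mild EAE mice were 3 (0.429%, beside 0.370%), namely Smarca2 exon 33 and Kmt2c exons 4 and 5, and Smarca2 and Smarcc2 each had 1 such region in the 3′ UTR. Neighbouring exons of Chd3 and of Smarca2 can come from the same contigs, and single regions were not tested.

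Smarca2 thus carried regions of both kinds. Its exon 33 and 3′ UTR, at the 3′ end of the gene, were footprinted in the 3 naïve mice at chr19:26776101-26776243 and chr19:26777335-26777504, and its exons 25 and 26 in the 3 mild EAE mice at chr19:26710604-26710685 and chr19:26716115-26716192.

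Footprints shared within a group were counted by the rule of the study, which requires an overlap of over 1 nt between 2 or more mice of the same group. Naïve mice shared 120 such stretches in 30 chromatin genes, mild EAE mice 160 in 35 genes and severe EAE mice 6 in 6 genes. The gene count was 18 in naïve mice without naïve mouse 3, and in mild EAE it was 18 without mild EAE mouse 7 and 23 without mild EAE mouse 3. The 6 genes of severe EAE were Arid5b, Chd3, Chd6, Chd9, Kmt2e and Setd2, and all of them had shared stretches in the naïve and mild EAE groups too. The severe EAE count was 0 without severe EAE mouse 5 and 1 without severe EAE mouse 1. Shared stretches were found in naïve and mild EAE mice but not in severe EAE for 21 genes, in naïve mice alone for Chd1, Chd8 and Kdm5c, and in mild EAE alone for Arid3a, Chd7, Kdm4a, Kmt2b, Setdb1, Smarca5, Smarcd1 and Smarce1. Shared stretches were not counted over all genes, so these sets are not shown to be particular to the chromatin genes.

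Other genes of chromatin regulation, listed by function and not by symbol, were examined in the same way. Of 24 histone acetyltransferase and deacetylase genes 21 were footprinted and 15 tested, with Hdac9 lower in every mild EAE mouse and Hdac3 and Kat5 lower in every severe EAE mouse. Of 27 Polycomb genes 22 were footprinted and 8 tested, with Asxl1 higher in mild EAE. Of 18 other histone methyltransferases 15 were footprinted and 9 tested, with Ehmt1 higher in mild EAE and Nsd3 lower in severe EAE. Of 33 further subunits and remodelers 31 were footprinted and 18 tested, and 4 were higher in mild EAE (Bptf, Baz2b, Dpf2 and Phf10) and Atrx lower in severe EAE. Of 9 genes of DNA methylation 6 were footprinted and 4 tested, with Tet2 lower in severe EAE. Each of these calls is a lack of overlap between groups, and none passed the test after adjustment. Asxl1 and Phf10 had no footprint in naïve mice, so they could not be called lower. Of all 5015 genes tested, 10.5% were called higher and 6.38% lower in mild EAE, and 12.5% were called lower in severe EAE.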

How the data were processed

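hnRNP A1 CLIPseq of spinal cord from 10 mice was used, 1 immunoprecipitation a mouse, crosslinked at 254 nm with 2 doses of 400 mJ and using 2 mg of protein. The inputs and pooled IgG libraries were not analysed here. The authors demultiplexed with bcl2fastq 2.19.0.316, trimmed with fastp, assembled reads by rnaSPAdes, placed the contigs on GRCm38 by spliced alignment (minimap2 2.17), removed input and IgG sites (bedtools) and merged overlapping or adjoining sites. The deposited lists hold chromosome, start and end only. Footprints ran from 7 to 2690 nt. Merging ignored strand, so overlapping genes cannot be told apart, and 95 of 1650 footprints (5.76%) overlapped another gene.

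Spans, exons and introns came from GENCODE release M21 (GRCm38 patch 6). The builds were checked: 135639 of 136207 footprints lay on chromosomes of the annotation, 0 ran beyond the end of one, and 4092 of 4116 introns of the chromatin genes (99.4%) began with GT and ended with AG. Covered nt per gene were divided by the covered nt of the mouse and given per 1000000. Genes footprinted in at least 4 of 10 mice were compared by exact two-sided permutation tests with Benjamini-Hochberg adjustment at 0.05 over 5015 genes, with limma on log2(value + 1) as an alternative. The permutation test and the counting of overlaps were tested on simulated data. Genes are named by mice with a footprint and by calls, and regions by mice. Regions were not tested, and share of nt, length limits, overlaps, exon sets, filters and each mouse left out were tried as alternatives. Genes, lists and markers were chosen with earlier results of these data known, and some alternatives were added after seeing the data. p-values measure the spread between mice. Python 3.11.15, numpy 2.4.6, pandas 2.3.3, scipy 1.17.1, matplotlib 3.10.9, R 4.3.3 and limma 3.58.1 were used. A result for 1 gene of the other chromatin lists is not reported here.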

Additional observations from a re-analysis of the deposited data

Results flagged for a closer look

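In severe EAE, 1 mouse of 4 stood far from the other 3. Severe EAE mouse 5 had 337 footprints in the chromatin genes where severe EAE mice 1, 2 and 6 had 27, 0 and 9. Its covered nt stood apart in the same way, by the gap to the next mouse over the range of the group, for Kmt2d (1539), Chd5 (1629), Kmt2a (2492), Kmt2c (1602), Chd4 (1750), Kmt2e (1704), Chd6 (1372), Smarcc2 (1902), Smarca4 (1536) and Arid4a (1526). Chance flags about 1 in 20 groups of this size, and these 11 values share 1 mouse and its list of 31870 footprints, so they are not separate observations. Divided by the list total, the share of footprints in chromatin genes was 1.06% in this mouse, beside 1.07 to 1.53% in naïve and mild EAE mice and 1.01, 0 and 1.34% in the other 3 severe EAE mice.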

How the results depend on the processing

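The coding share of footprints in chromatin genes was 88.1%, and 86.7 to 89.6% with each mouse left out in turn. The intronic share, EAE minus naïve, was -4.30 percentage points and negative in the 15 alternatives run, from -6.69 without severe EAE mice 1, 2 and 6 to -0.737 as a share of covered nt (-5.90 to -1.40 with each mouse left out). EAE minus naïve for the share of footprints in chromatin genes ran from -0.160 to 0.0943 points with each mouse left out, the highest without severe EAE mouse 2. Genes covered more in mild EAE, 4 in number, were 0 by limma and 0 with intronic footprints alone, and 4 to 9 with each mouse left out, the highest without mild EAE mouse 4. Without division by the list total they were 3, and Arid4b and Setd3 were not among them. Genes covered less in mild EAE were 1 without division by the list total and 0 to 2 with each mouse left out (2 without naïve mouse 1 or mild EAE mouse 7). Without severe EAE mice 1, 2 and 6, an alternative chosen after seeing the data, 3 genes were covered more in all EAE. Genes covered less in severe EAE, 6 in number, were 11 in severe EAE mouse 5 alone, where 10 were covered more, an alternative also chosen after seeing the data, and 6 to 14 with each mouse left out (14 without severe EAE mouse 5). Before division by the list total, naïve and severe EAE values overlapped for each of the 6. Genes covered less in all EAE were 0 to 2 with each mouse left out (2 without naïve mouse 1). Fewer mice make a lack of overlap easier, and shares of all genes were not counted with a mouse left out. With a replicate block, which compares naïve and EAE mice of the same number, 7 of 44 genes (15.9%) were lower in 3 of 3 pairs and 0 higher, beside 21 and 0.638% of all 5015 genes, and the pairs include severe EAE lists of 2670 and 209 footprints. The numbers name different animals and the pairs did not deviate together (r of -0.0194, 0.0455 and 0.0150 across 5015 genes, which are not independent). Genes with stretches shared by at least 3 mice in place of 2 were 13 in naïve, 15 in mild EAE and 0 in severe EAE mice. Under the rule of at least 2 mice, the counts with each mouse left out were 18 to 25 in naïve, 18 to 29 in mild EAE and 0 to 6 in severe EAE mice. The length of the lists limits all comparisons with severe EAE, since a gene absent from a list of 209 footprints is not shown to be unbound.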
